A study of Mus musculus with 24 samples.

Results

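The genes described are 10 members of the mammalian circadian clock: Arntl, Arntl2, Clock, Per1, Per2, Per3, Cry1, Nr1d1, Nr1d2 and Dbp. They were chosen by name with their measured differences between genotypes, DHT conditions and tissue in these libraries already known. Tests of these 10 on the same libraries, and alternative fits, therefore describe them and are not independent support. All 10 were found among the 35519 genes to which the transcripts of the deposited files could be assigned. RNA had been sequenced from mouse prostate organoids, which are epithelial cultures grown in Matrigel from digested anterior lobes of 3-month-old mice, and from whole anterior lobes taken directly from mice whose age the labels do not give. The organoids carried the genotype labels WT (wild type), HET (Brca1+/-) or KO (Brca1-/-) and were grown with or without dihydrotestosterone (DHT), the potent androgen made from testosterone, in a shared medium with EGF, Noggin, R-Spondin, A83-01, Y27632 and B27. Each of these 6 organoid groups had 3 libraries, and each of the 3 tissue groups (the same genotype labels) had 2. The labels do not give the promoter or Cre that made the Brca1 alleles, the exons removed, the strain, the length of DHT withdrawal, or the hour at which any sample was taken. They call the samples biological replicates without saying whether these were separate animals or cultures, so the tests measure only the spread between these samples. Because the hour is not given, a difference in clock phase between groups cannot be told apart from a difference of genotype, hormone or tissue.

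The clock of each mammalian cell is a feedback loop of transcription. CLOCK pairs with the product of Arntl (BMAL1) or of its paralog Arntl2 (BMAL2) and activates genes through E-boxes, among them the Per and Cry genes, whose proteins return to the nucleus and repress that pair. A linked loop runs through the nuclear receptors encoded by Nr1d1 and Nr1d2 (REV-ERBs), which repress Arntl, and outputs such as Dbp, a factor binding D-boxes, carry the rhythm to other genes. In synchronised tissue the activators and their targets peak at different hours, whereas a culture that has not been synchronised holds cells at many phases.

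The start regions of 4 members are shown because these genes carry the main patterns below: Arntl2 for genotype, Per3 for genotype and DHT, Cry1 for DHT, and Per1 for its joint variation with Dbp. Each runs from 250 bases before to 50 bases after a transcription start in RefSeq (GRCm38.p6) on the strand of the gene, and RefSeq held such windows for 9 of the 10 members, 13 in all. Capitals mark matches on either strand to the E-box CACGTG, the related CACGTT, the sequence AGGTCA bound by REV-ERB and ROR receptors, the D-boxes TTATGTAA and TTACGTAA, or the cyclic AMP element TGACGTCA.
Arntl2, chr6:146805280-146805579, plus strand: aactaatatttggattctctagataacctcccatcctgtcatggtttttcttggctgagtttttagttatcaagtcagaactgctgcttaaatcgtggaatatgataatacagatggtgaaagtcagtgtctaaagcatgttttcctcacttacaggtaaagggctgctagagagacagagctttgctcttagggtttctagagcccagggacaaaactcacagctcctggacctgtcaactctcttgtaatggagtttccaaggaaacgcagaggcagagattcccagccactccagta
Per3, chr4:151044616-151044915, minus strand: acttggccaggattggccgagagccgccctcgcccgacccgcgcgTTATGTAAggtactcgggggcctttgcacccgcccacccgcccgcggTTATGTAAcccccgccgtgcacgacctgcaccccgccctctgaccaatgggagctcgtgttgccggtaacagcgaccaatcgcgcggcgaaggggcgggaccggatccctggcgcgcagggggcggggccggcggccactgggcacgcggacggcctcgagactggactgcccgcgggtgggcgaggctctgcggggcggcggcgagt
Cry1, chr10:85185005-85185304, minus strand: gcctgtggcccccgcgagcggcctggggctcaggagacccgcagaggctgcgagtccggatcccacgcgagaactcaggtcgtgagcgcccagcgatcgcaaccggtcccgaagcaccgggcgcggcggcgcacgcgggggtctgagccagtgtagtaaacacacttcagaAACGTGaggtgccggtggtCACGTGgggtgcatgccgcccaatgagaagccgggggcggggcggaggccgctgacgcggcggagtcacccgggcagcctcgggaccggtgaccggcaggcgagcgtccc
Per1, chr11:69098699-69098998, plus strand: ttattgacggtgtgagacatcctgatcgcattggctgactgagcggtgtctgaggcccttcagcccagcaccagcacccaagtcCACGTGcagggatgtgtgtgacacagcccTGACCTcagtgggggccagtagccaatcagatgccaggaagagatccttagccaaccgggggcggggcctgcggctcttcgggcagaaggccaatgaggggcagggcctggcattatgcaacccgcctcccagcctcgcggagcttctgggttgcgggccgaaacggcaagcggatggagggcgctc
The Cry1 window held an E-box at position -60 and a CACGTT at -79 from the start, and the Per1 window shown an E-box at -166 and an AGGTCA at -137. RefSeq gives a second Per1 window, chr11:69099902-69100201, which held none of the motifs. Per3 held D-boxes at -205 and -158, and the Arntl2 window, which lies inside the gene as GENCODE draws it, held none of the motifs. Among the remaining windows, Nr1d1 had a CACGTT at -28, and Arntl, Clock and Nr1d2 each had an AGGTCA. For Arntl and Clock this was in only part of their windows, and the rest held none of the motifs. Of 32851 RefSeq windows of this length, 7.15% held the E-box, 4.68% CACGTT, 16.3% AGGTCA, 1.06% a D-box and 1.79% the cyclic AMP element. A match says only that the letters are present.

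The libraries held 11965815 to 58445041 estimated reads, and all but the smallest held at least 25233980. That smallest library, WT-labelled organoids with DHT replicate 1, stood apart: Lars2 took 28.1% of its reads, against at most 0.954% elsewhere, and differences that it moves are also given without it. Mitochondrial reads made up 1.60% to 10.01% of a library and were highest in replicate 1 of the HET-labelled (9.43%) and KO-labelled (10.01%) organoids without DHT. Fkbp5, an androgen-induced gene used to check the DHT label, was lower without DHT in each genotype label (log2 change -1.83 ± 0.15 SE in WT, -1.42 ± 0.15 in HET and -1.45 ± 0.15 in KO). For Brca1 RNA with DHT the log2 difference from WT was 0.30 ± 0.13 SE under the HET label and -0.34 ± 0.13 under the KO label, not a stepwise fall, and without a known deleted part this total checks nothing further. Of the 8 epithelial markers, none was under 1 TPM in all libraries of either material. The 7 stromal markers summed to 7.47 to 35.5 TPM (transcript abundance scaled by length and depth) in organoids and 416 to 1589 TPM in tissue.

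In organoids, Dbp, Nr1d1, Nr1d2 and Per1 were the most abundant members on the TPM scale, which allows genes to be compared. Dbp had the highest median over the 18 organoid libraries, 114 TPM (56.4 to 139), followed by Nr1d1 with 76.3 TPM (38.0 to 125), Nr1d2 with 39.4 TPM (31.9 to 46.5) and Per1 with 37.4 TPM (23.2 to 58.6). Those ranges overlapped from each gene to the next. A gap then separated Per1 from Clock, whose median was 14.8 TPM and whose highest library reached 20.1 TPM. Per3 (median 10.8 TPM), Arntl (10.5), Cry1 (7.78) and Per2 (4.76) followed with overlapping ranges. Arntl2 had the lowest median, 1.43 TPM, over a range of 0.800 to 7.75 TPM that overlapped that of Per2. The span of that range followed the genotype label, and Arntl2 was not the lowest in every WT-labelled library. With DHT, WT-labelled replicates 1 to 3 held 7.75, 5.37 and 5.42 TPM of Arntl2 against 3.615, 4.16 and 3.80 TPM of Per2. Without DHT, Arntl2 was above Per2 in WT-labelled replicate 1 (5.35 against 5.06 TPM) and below it in replicates 2 and 3.

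Arntl2, the paralog of Arntl, was the member with the widest separation by genotype. Levels between libraries are given as CPM, read counts scaled by library size and edgeR's trimmed mean of M values. WT-labelled organoids with DHT held 9.003, 7.18 and 7.26 CPM of Arntl2 in replicates 1 to 3, and those without DHT held 7.08, 7.26 and 6.87 CPM. HET-labelled organoids held 0.983, 1.04 and 0.899 CPM with DHT and 1.67, 1.09 and 0.924 CPM without it. KO-labelled organoids held 1.22, 0.857 and 1.31 CPM with DHT and 1.73, 1.04 and 1.15 CPM without it. Every WT-labelled library was thus above every HET- and KO-labelled one, whereas HET and KO overlapped. The fitted log2 change against WT with DHT was -2.99 ± 0.24 SE (HET) and -2.77 ± 0.24 (KO), and without DHT it was -2.55 ± 0.24 and -2.46 ± 0.24. KO against HET gave 0.21 ± 0.24 with DHT and 0.09 ± 0.24 without. Without the WT-labelled library that stood apart, the changes with DHT were -2.89 ± 0.26 (HET) and -2.66 ± 0.25 (KO). When transcript lengths were taken into account, the changes with DHT were -2.42 ± 0.48 (HET) and -2.42 ± 0.47 (KO), and those without DHT were -1.78 ± 0.47 (HET) and -1.68 ± 0.47 (KO), the last of which lost its call. Arntl2 rested on 36 to 384 estimated reads in an organoid library.

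**Figure D1:**
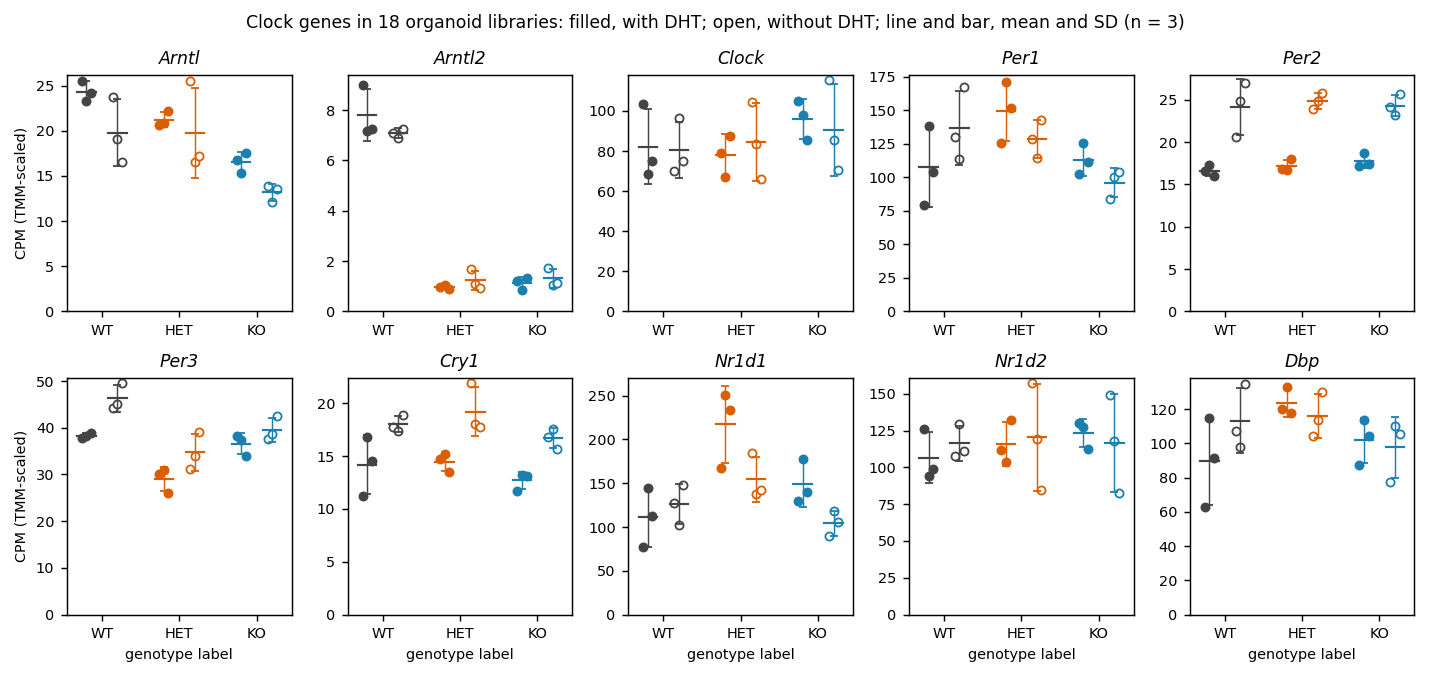
TMM-scaled CPM (vertical axes, from 0) of the 10 clock genes in 18 organoid libraries by genotype label, with DHT (filled) and without (open); the line and bar are the mean and SD of 3 libraries. Arntl2 lies at 6.87 to 9.003 CPM in all WT-labelled libraries and at 0.857 to 1.73 CPM in the others, and Per2 without DHT (20.6 to 27.0 CPM) lies above Per2 with DHT (16.0 to 18.8 CPM).

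The other activators separated less by genotype. Arntl, which encodes BMAL1, held 25.5, 23.2 and 24.2 CPM in WT-labelled, 20.6, 20.9 and 22.2 CPM in HET-labelled and 16.8, 15.3 and 17.5 CPM in KO-labelled organoids with DHT. These groups did not overlap, in the order WT, HET, KO, and KO differed from WT by -0.55 ± 0.16 SE on the log2 scale, without passing the test. Without DHT, Arntl held 23.8, 16.5 and 19.0 CPM in WT-labelled and 25.5, 16.5 and 17.2 CPM in HET-labelled organoids, which overlapped. KO-labelled organoids without DHT held 13.9, 12.1 and 13.5 CPM, below all of these, and Arntl fell there against WT by 0.59 on the log2 scale (SE 0.16). That call held in 8 of 25 alternative fits. It was lost with the size factors of DESeq2 in edgeR, without the low-count filter, when transcript lengths were taken into account and in the fit of the groups compared. Leaving out any of 13 of the 18 libraries also lost it (log2 values from -0.70 to -0.42 over all libraries left out). The libraries that could be left out with the call kept were WT-labelled replicate 1 with DHT, WT-labelled replicate 2 without DHT and any HET-labelled library without DHT. Clock, the partner of both, held 68.4 to 103 CPM with and 70.1 to 96.6 CPM without DHT in WT-labelled organoids, and 65.8 to 116 CPM over all HET- and KO-labelled ones. Its groups overlapped in each genotype comparison, with log2 changes from -0.07 to 0.30 (SE 0.21).

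Among the repressors, Per3 differed between HET and WT labels. With DHT, Per3 held 37.8, 38.2 and 38.9 CPM in WT-labelled, 30.1, 31.0 and 26.1 CPM in HET-labelled and 38.3, 37.4 and 34.0 CPM in KO-labelled organoids. Without DHT, the same labels held 44.3, 49.5 and 45.0 CPM, 31.2, 33.9 and 39.1 CPM, and 37.6, 38.6 and 42.5 CPM. In CPM, HET lay below WT with no overlap under either condition. Per3 fell by 0.40 (SE 0.10) with DHT and by 0.41 (SE 0.10) without it on the log2 scale. In TPM, which takes length into account, HET and WT overlapped. With DHT, HET held 6.68 to 8.63 and WT 8.51 to 10.9 TPM, the lowest WT value being that of the library that stood apart. Without DHT, HET held 6.99 to 12.9 and WT 12.4 to 14.1 TPM. Each call held in 20 of 25 alternative fits, and both were lost when transcript lengths were taken into account. The call with DHT was also lost without the low-count filter, and that without DHT in the fit of the groups compared. With DHT it was lost without HET-labelled replicate 3 or WT-labelled replicate 2 or 3 (values from -0.45 to -0.33 over all libraries left out), and without DHT on leaving out HET-labelled replicate 1 or 2 or WT-labelled replicate 2 (from -0.51 to -0.34). Per3 overlaps Camta1 on the same strand over 41014 bases, so the split of reads between these genes rests on the transcript estimates. KO against WT differed by -0.07 ± 0.10 SE with DHT and -0.23 ± 0.10 without. Per1, the light- and hormone-inducible period gene, held 79.7 to 139 CPM in WT-labelled and 126 to 171 CPM in HET-labelled organoids with DHT, which overlapped. KO-labelled organoids without DHT held 83.9, 100 and 104 CPM of Per1, below WT (113 to 167 CPM), with a log2 difference of -0.51 ± 0.19 that did not pass the test. Between genotype labels under the same condition, the log2 differences lay between -0.03 and 0.10 (SE 0.10) for Per2 and between -0.20 and 0.09 (SE 0.13) for Cry1, and neither gene passed the test.

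Of the receptors of the second loop, Nr1d1 was higher in HET-labelled organoids with DHT. It held 77.0, 145 and 113 CPM in WT-labelled, 167, 250 and 234 CPM in HET-labelled and 129, 178 and 140 CPM in KO-labelled organoids with DHT. HET lay above WT without overlap and overlapped KO. Nr1d1 rose in HET against WT by 0.96 on the log2 scale (SE 0.22), and the lowest WT value came from the library that stood apart, without which the difference was 0.75 ± 0.22 and lost its call. The call was also lost without HET-labelled replicate 2 (0.84 ± 0.25), without HET-labelled replicate 3 (0.90 ± 0.25) or without WT-labelled replicate 3 (0.96 ± 0.27) with DHT. Without DHT, HET-labelled organoids held 184, 137 and 142 CPM of Nr1d1 against 127, 149 and 102 CPM in WT, a difference of 0.29 ± 0.22. Nr1d1 overlaps Thra on the opposite strand over 1075 bases, and whether counting used strand is not stated in the sources used here. Nr1d2 held 82.6 to 157 CPM over all 18 organoid libraries with overlap in every genotype comparison and log2 differences from -0.04 to 0.21 (SE 0.22). Dbp, which overlaps Sphk2 on the opposite strand over 737 bases, held 63.0, 115 and 91.5 CPM in WT-labelled and 120, 133 and 118 CPM in HET-labelled organoids with DHT. These did not overlap, and the log2 difference of 0.46 ± 0.19 became 0.26 ± 0.18 without the WT-labelled library that stood apart.

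Counted by label, the members called (adjusted p below 0.05 over all 15427 genes in edgeR's quasi-likelihood test) were 3 of 10 for HET against WT with DHT, where 7.51% of all genes were called, and 1 of 10 for KO against WT with DHT, where 4.11% were. Without DHT they were 2 of 10 for HET against WT, beside 7.81% of all genes, and 2 of 10 for KO against WT, beside 4.8%. KO against HET gave 0 of 10 under either condition, beside 3.54% of genes with DHT and 2.92% without. In those latter comparisons 4 and 3 of 10 members had an unadjusted p under 0.05, beside 2175 and 1845 of all 15427 genes. DESeq2 called Per3 with DHT and Arntl without. Since the 10 genes were proposed with such results in view, these counts describe them and nothing is read from them. The comparisons of HET and KO with WT share the WT libraries. Sums of markers of other cell types also moved with the HET label. The stromal sum was 7.47 to 10.95 TPM in HET-labelled, 19.4 to 27.8 TPM in WT-labelled and 19.9 to 35.5 TPM in KO-labelled organoids. Col1a2, Col3a1, Myh11 and Des were under 1 TPM in every organoid library, and Dcn was the highest stromal marker. Dcn held 6.36 to 12.1 CPM (HET), 21.3 to 30.8 CPM (WT) and 17.5 to 37.9 CPM (KO). Acta2 went the other way between HET (0.726 to 1.04 CPM) and WT (0.111 to 0.629 CPM). The sum of 4 leukocyte markers was 78.6 to 120 TPM in HET-labelled and 55.9 to 87.3 TPM in the other organoids. Ptprc, Adgre1 and Cd3e were under 1 TPM throughout, so Cd68 made up nearly all of that sum. The part of these markers in the HET differences was not tested.

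Withdrawal of DHT was accompanied by higher Per2, the period gene with the lowest level in organoids. Per2 held 16.5, 17.3 and 16.0 CPM with DHT in WT-labelled organoids and 20.6, 27.0 and 24.8 CPM without it. HET-labelled organoids held 16.8, 16.8 and 18.01 CPM with and 23.9, 24.8 and 25.8 CPM without DHT, and KO-labelled organoids 17.2, 18.8 and 17.4 CPM with and 24.1, 23.2 and 25.7 CPM without. All 9 libraries without DHT were above all 9 with it. The log2 change was 0.54 ± 0.10 SE in WT-labelled, 0.53 ± 0.10 under HET and 0.45 ± 0.10 under KO labels, and 0.51 ± 0.06 as the mean of the 3. Per2 rose in WT, in HET and in the mean by the edgeR test, and in KO by DESeq2 and not by edgeR. Since Per2 was chosen with its DHT difference known, these calls and their alternative fits only describe it. The call in the mean held in all 24 alternative fits. That in WT held in 22 of 25 and was lost without replicate 3 with DHT or replicate 2 without DHT. That in HET held in 19 of 25 and was lost without replicate 1 or 2 with DHT or replicate 2 or 3 without DHT. Both were also lost in the fit of the groups compared, and the HET call was lost without the low-count filter.

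Cry1, the cryptochrome that holds the CLOCK complex inactive, held 11.3 to 16.8 CPM with and 15.7 to 21.9 CPM without DHT over 9 libraries each. The groups did not overlap within any genotype label: 11.3, 16.8 and 14.5 against 17.8, 18.8 and 17.4 CPM in WT, 14.7, 15.2 and 13.5 against 21.9, 18.03 and 17.7 CPM in HET, and 11.7, 13.2 and 13.1 against 16.8, 17.6 and 15.7 CPM in KO. In the mean over labels Cry1 rose by 0.38 ± 0.07 SE on the log2 scale, a call that held in all 24 alternative fits, and by 0.33 ± 0.06 without the WT-labelled library that stood apart. Per3 rose by 0.21 ± 0.06 in the mean, and that call held in 7 of 24 alternative fits. It was lost when transcript lengths were taken into account and without the low-count filter. Leaving out any library other than HET-labelled replicate 2 with DHT or replicate 1 of HET or KO without DHT also lost it (values from 0.18 to 0.24). In CPM, Per3 with and without DHT did not overlap within the WT or the HET label but overlapped within KO. In TPM it overlapped within HET as well (6.68 to 8.63 with and 6.99 to 12.9 without DHT).

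The remaining members did not pass the test of DHT withdrawal. Arntl differed by -0.24 ± 0.09 SE and Nr1d1 by -0.28 ± 0.13 in the mean over labels, while Arntl2 (0.12 ± 0.13), Per1 (-0.04 ± 0.11), Nr1d2 (0.04 ± 0.12), Dbp (0.06 ± 0.11) and Clock (0.00 ± 0.12) lay within 1 SE of 0. Nr1d1 had a positive value in WT (0.17 ± 0.22) and negative values in HET (-0.49 ± 0.22) and KO (-0.51 ± 0.22), and the WT value was -0.03 ± 0.21 without the library that stood apart. Per1 likewise had 0.35 ± 0.19 in WT, -0.21 ± 0.19 in HET and -0.24 ± 0.19 in KO, and its WT value was 0.18 ± 0.18 without that library. Members called were 1 of 10 in WT, beside 1.3% of all genes, 1 of 10 in HET, beside 0.707%, 0 of 10 in KO, beside 0.557%, and 3 of 10 in the mean, beside 4.96%. In KO, 3 of 10 members had an unadjusted p under 0.05, beside 1085 of all 15427 genes, and DESeq2 called Per2.

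**Figure D2:**
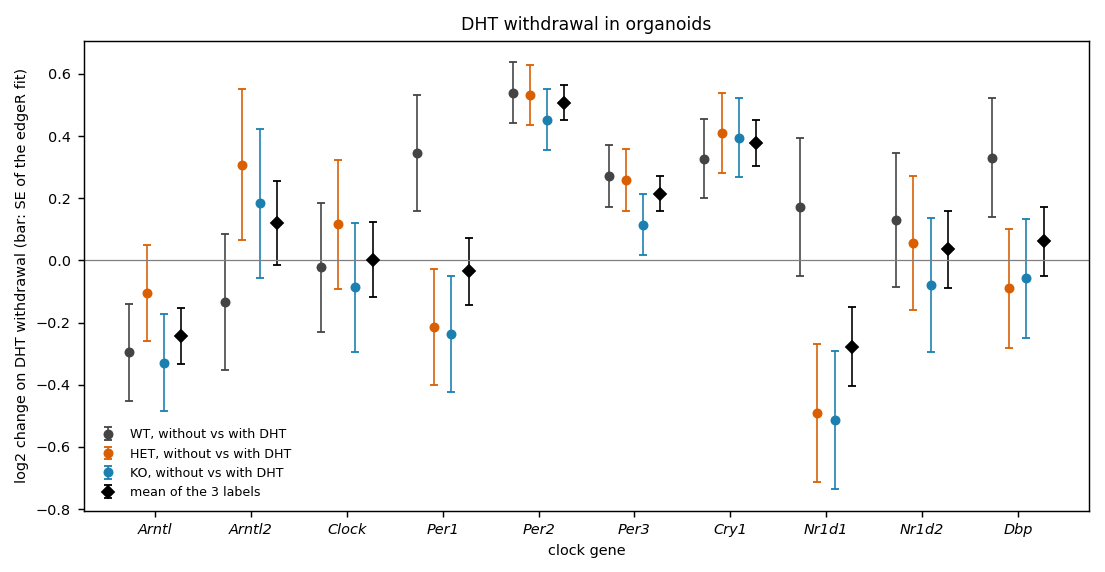
Log2 change on DHT withdrawal (vertical axis; bars are the SE of the edgeR fit) for each clock gene in WT-, HET- and KO-labelled organoids and their mean. Per2 lies at 0.45 to 0.54 under all 3 labels, and Per1 and Nr1d1 lie above 0 in WT and below 0 in HET and KO; the WT value of Nr1d1 is -0.03 without replicate 1 with DHT.

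Whether the withdrawal response differed between genotype labels was tested as an interaction. None of the 10 members and 0% of the 15427 genes passed in edgeR for HET minus WT, KO minus WT or KO minus HET. Unadjusted p was under 0.05 for 433, 417 and 151 genes, and DESeq2 called 4, 5 and 1 genes, none of them a member. For Nr1d1 the difference in response was -0.66 ± 0.31 SE (HET minus WT) and -0.69 ± 0.31 (KO minus WT), and for Per1 -0.56 ± 0.26 and -0.58 ± 0.26. Without the WT-labelled library that stood apart these were -0.46 ± 0.29 and -0.49 ± 0.29 for Nr1d1 and -0.40 ± 0.25 and -0.42 ± 0.25 for Per1. For Per2 it was -0.01 ± 0.14 and -0.09 ± 0.14.

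The wider clock was followed through 22 further genes that were all tested: Npas2, Cry2, 3 ROR receptors, the D-box factors Nfil3, Tef and Hlf, the E-box repressors Bhlhe40 and Bhlhe41, Ciart, kinases and ubiquitin ligases that modify PER and CRY proteins, and the outputs Usp2, Wee1 and Nampt. This list too was drawn up with earlier results of these data known, so its p-values are not those of an independent test. On DHT withdrawal in the mean over labels 2 of 22 fell and none rose, beside 4.96% of all genes, and the median log2 change of the 22 was -0.06 against 0.02 for all genes. Npas2, a paralog of Clock, held 20.0 to 25.0 CPM over 9 libraries with DHT (median 23.6) and 18.2 to 21.6 CPM without it (median 20.0), and fell by 0.21 on the log2 scale (SE 0.04, adjusted p = 0.0102 by edgeR). Nfil3, a repressor at D-boxes, held 10.7 to 32.3 CPM with and 8.51 to 17.0 CPM without DHT and fell by 0.47 (SE 0.13, adjusted p = 0.0475 by edgeR). Both pairs of ranges overlapped over all labels, and the Nfil3 call held in 8 of 24 alternative fits against 22 of 24 for Npas2. The Nfil3 call was lost on leaving out any library other than replicate 1 of WT, HET or KO with DHT or KO replicate 2 without DHT (log2 change from -0.53 to -0.39). Within a single label, withdrawal called 0 of 22 in edgeR, beside 1.3% (WT), 0.707% (HET) and 0.557% (KO) of all genes. Unadjusted p was under 0.05 for 4 (WT), 4 (HET) and 2 (KO) of the 22, beside 1245, 1295 and 1085 of 15427 genes. DESeq2 called 0, 1 and 0 of the 22.

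By genotype, Bhlhe40, an E-box repressor induced by many stimuli, was the only one of the 22 called by edgeR. It held 646 to 777 CPM in WT-labelled, 695 to 840 CPM in HET-labelled and 544 to 630 CPM in KO-labelled organoids with DHT, and without DHT 644 to 760, 601 to 649 and 481 to 544 CPM. Bhlhe40 fell in KO against HET with DHT by 0.41 on the log2 scale (SE 0.10, adjusted p = 0.0358 by edgeR) and in KO against WT without DHT by 0.48 (SE 0.10, adjusted p = 0.0127 by edgeR). Each was the only call among the 22 in its comparison, beside 3.54% and 4.8% of all genes. The first call held in 15 and the second in 22 of 25 alternative fits. The first was lost without HET-labelled replicate 2 or 3, any KO-labelled replicate or WT-labelled replicate 3 with DHT, or without replicate 2 of HET or WT without DHT (from -0.49 to -0.35), and the second without replicate 1 of KO or WT without DHT (from -0.53 to -0.41). HET against WT gave 0 of 22 with and without DHT, beside 7.51% and 7.81% of all genes. There 4 and 3 of the 22 had an unadjusted p under 0.05, beside 2905 and 2908 of 15427 genes. DESeq2 called 1 of the 22 each time. KO against WT with DHT gave 0 of 22 beside 4.11% of all genes (2 unadjusted, beside 2034 genes, and 0 by DESeq2). KO against HET without DHT gave 0 of 22 beside 2.92% (4 unadjusted, beside 1845 genes, and 1 by DESeq2).

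Members varied together across the 18 organoid libraries in a few pairs, given here as a description because the libraries share groups, depth and composition. Pearson's r of log2 CPM was 0.885 between Per1 and Dbp, 0.836 between Per1 and Nr1d1, 0.753 between Nr1d1 and Dbp, 0.734 between Per2 and Cry1 and 0.890 between Clock and Nr1d2. After the group means were taken out, r was 0.897, 0.888, 0.746, -0.02 and 0.946 for these pairs in the same order, so the r of Per2 and Cry1 lay between the groups. Without the WT-labelled library that stood apart, and with the group means left in, r was 0.865, 0.788, 0.666, 0.712 and 0.897. The Per1 and Cry1 windows printed above each hold an E-box, whereas the second Per1 window and the Dbp window hold none of the motifs. Clock and Dbp had r = -0.667. Clock and Nr1d2 also moved with the mitochondrial share of a library (r = 0.753 and 0.796), and Dbp with its log2 number of reads (r = 0.741, or 0.448 without the library that stood apart). The part of these library properties in the pairs was not tested. The genes most like Dbp among 9920 with a mean of at least 5 CPM were Papss1 (r = 0.929), Sil1 (0.913), Rhov (0.912), Cables1 (0.910) and Supt4a (0.905).

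The separation of Arntl2 was also visible among its transcripts. The files list 9 for this gene, which spans chr6:146796055-146833529 on the plus strand of GRCm38: 4 protein coding, 3 with a retained intron, 1 marked for nonsense-mediated decay and 1 other processed transcript. The protein-coding transcripts summed to 1.14, 1.83 and 1.71 TPM in WT-labelled organoids with DHT and to 1.82, 2.32 and 1.70 TPM without it. In HET-labelled organoids they summed to 0.196, 0.0278 and 0.0439 TPM with DHT and to 0.174, 0 and 0.0199 TPM without, and in KO-labelled organoids to 0.0374, 0.196 and 0.0853 TPM with and to 0, 0.1297 and 0.223 TPM without. The WT label did not overlap the others. The transcript marked for decay held 0.582 to 2.18 TPM in WT-labelled and 0 to 0.373 TPM in HET- and KO-labelled libraries. The retained-intron class held 1.86 to 4.43 TPM in WT-labelled and 0.605 to 2.27 TPM in the other libraries, so these overlapped. Protein-coding transcripts made up 14.7% to 36.6% of Arntl2 TPM in WT-labelled libraries and 0% to 24.4% in the others. The library that stood apart set 3 of these WT limits. Without it the WT range was 31.5% to 36.6% for the coding share, which did not overlap the others, 0.582 to 1.34 TPM for the decay transcript and 1.86 to 2.54 TPM for the retained-intron class, which still overlapped. In KO-labelled replicate 1 without DHT, 2.06 of its 3.44 TPM came from the processed transcript, which is 238 bases long. These are estimates shared out among overlapping transcripts, and no count of reads across splice junctions is used here.

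**Figure D3:**
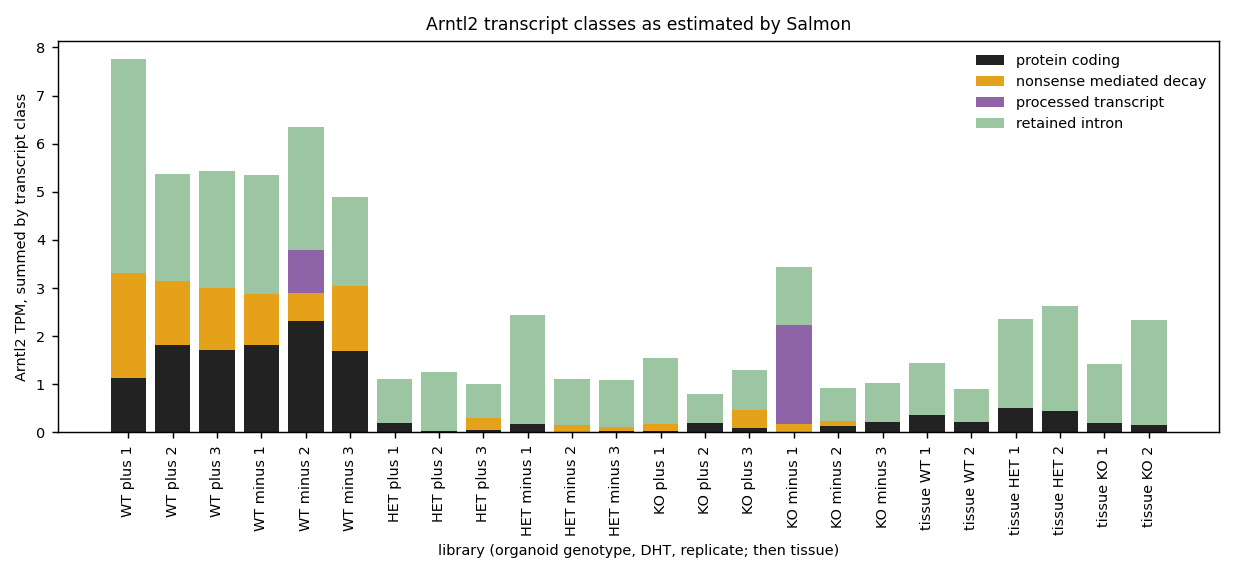
Arntl2 TPM (vertical axis) summed by annotated transcript class in each library; organoid libraries come first, tissue libraries last. Protein-coding transcripts reach 1.14 to 2.32 TPM in the 6 WT-labelled organoid libraries and at most 0.223 TPM in the 12 HET- and KO-labelled ones.

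The gene whose levels were most like those of Arntl2 across the 18 organoid libraries lies beside it. Stk38l, which encodes a kinase of the NDR family and ends 17242 bases before Arntl2 begins (chr6:146724995-146778812, plus strand), had r = 0.974 among the 9920 genes searched. Stk38l held 35.5 to 39.6 CPM in WT-labelled and 23.1 to 26.2 CPM in HET- and KO-labelled libraries, with log2 differences from WT of -0.63 ± 0.08 SE (HET) and -0.61 ± 0.08 (KO) with DHT and -0.56 ± 0.08 for each without. Trmt2b (r = 0.962) and Zdhhc9 (0.937) on chromosome X, Moxd1 (0.951) on chromosome 10 and Zfp532 (0.942) came next. After the group means were taken out, r with Arntl2 was 0.305 for Stk38l, 0.281 for Trmt2b, 0.626 for Moxd1, -0.324 for Zfp532 and -0.185 for Zdhhc9, lower for each than before. After the likeness of Stk38l was seen, the 17 tested genes within 1 Mb of Arntl2, Stk38l among them, were looked up. HET against WT with DHT called 1 of the 17 higher and 2 lower (Stk38l and Klhl42), beside 7.51% of all genes. KO against WT with DHT called 1 higher and 2 lower (Stk38l and Pthlh), beside 4.11%. Because Stk38l prompted the look, its difference was already known and nothing is read from these counts. Rep15, 199054 bases beyond the end of Arntl2, was the higher gene in both: it held 1.91 to 2.36 CPM in WT-labelled and 2.68 to 6.21 CPM in HET- and KO-labelled libraries, with log2 differences of 1.34 ± 0.24 and 1.03 ± 0.24 with DHT. Ppfibp1, the nearest tested gene on the far side, differed by -0.20 ± 0.14 in HET and -0.08 ± 0.14 in KO with DHT.

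**Figure D4:**
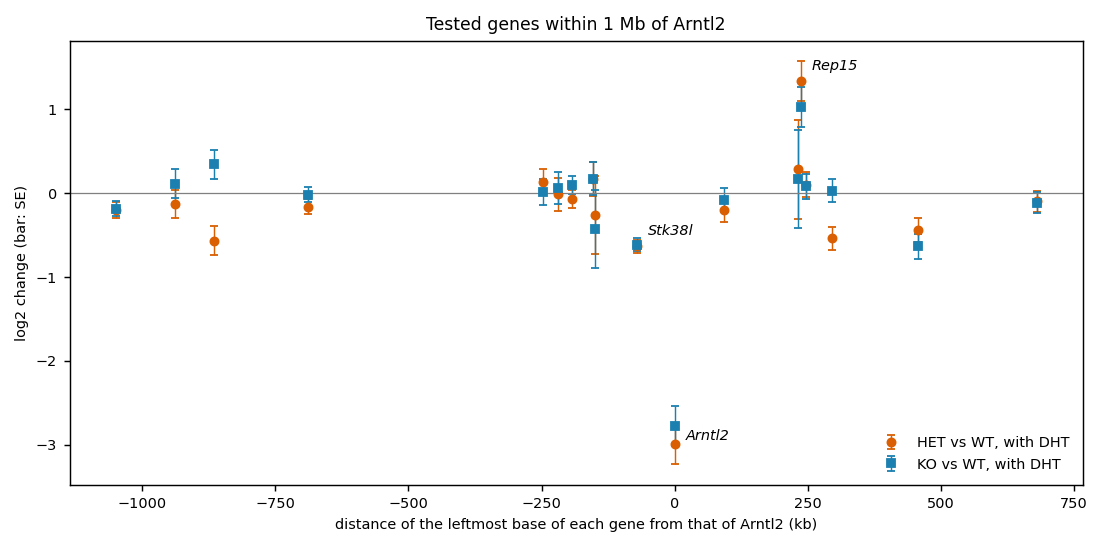
Log2 change against WT-labelled organoids with DHT (vertical axis; bars are SE) for Arntl2 and the 17 tested genes within 1 Mb, by the distance in kb of each gene's leftmost base from that of Arntl2. Arntl2 lies at -2.99 (HET) and -2.77 (KO), Stk38l at -0.63 and -0.61, and Rep15 at 1.34 and 1.03.

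In whole anterior lobe tissue, with 2 libraries per group, no member passed the test of genotype label. Tissue libraries HET 1 and WT 2 stood apart: 7 seminal vesicle genes summed to 62880 TPM and 178200 TPM there, against 5.12 to 24.4 TPM in the other 4. Arntl2 held 2.11 and 1.02 CPM in WT-labelled, 2.07 and 2.37 CPM in HET-labelled and 1.69 and 2.28 CPM in KO-labelled tissue, so the groups overlapped and WT was not the highest. It rested on 24 to 109 reads, and its log2 differences from WT were 0.50 ± 0.59 SE (HET) and 0.34 ± 0.59 (KO). Without HET 1 and WT 2, which holds the low WT value, these were 0.19 ± 0.66 and -0.07 ± 0.57. Arntl held 6.07 and 26.9 CPM in WT-labelled, 12.5 and 6.70 CPM in HET-labelled and 8.62 and 7.73 CPM in KO-labelled tissue. The KO value of Arntl against WT was -1.01 ± 0.73, and 0.44 without HET 1 and WT 2. Per2 held 7.61 and 7.55 CPM in WT-labelled, 24.7 and 7.65 CPM in HET-labelled and 12.4 and 11.3 CPM in KO-labelled tissue, and the high value is that of HET 1. None of the 10 members, 0 of the 22 other clock genes and 0% of 16753 genes passed in edgeR, while 457, 321 and 97 genes (0 of the 32 clock genes) had an unadjusted p under 0.05 for HET against WT, KO against WT and KO against HET. DESeq2 called 19, 23 and 15 genes, none of them a clock gene. The organoid and tissue differences in Arntl2 were not tested against each other.

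Against organoids with DHT, tissue held less of most clock genes. Dbp held 56.4 to 130 TPM over 9 organoid libraries with DHT and 12.6 to 21.5 TPM over 6 tissue libraries, Nr1d1 38.0 to 125 against 6.55 to 19.1 TPM, Per1 23.2 to 52.2 against 6.89 to 12.6 TPM, and Nr1d2 32.0 to 46.5 against 6.22 to 31.7 TPM. None of these 4 overlapped. The log2 differences from edgeR were -3.04 ± 0.26 SE for Nr1d1, -2.97 ± 0.16 for Dbp, -2.12 ± 0.17 for Per1 and -1.61 ± 0.27 for Nr1d2. Arntl (-1.15 ± 0.23), Per3 (-1.15 ± 0.12), Per2 (-0.84 ± 0.17) and Clock (-0.62 ± 0.17) were lower as well, and Cry1 (-0.33 ± 0.11) lost its call without tissue KO 2 (-0.27 ± 0.12) or HET 2 (-0.23 ± 0.10). Arntl2 differed by -0.35 ± 0.18 without passing the test. Thus 9 of 10 members fell, beside 75.3% of all 17912 genes called, 41.7% higher and 33.7% lower, and the median over all genes was 0.18. Without tissue HET 1 and WT 2 the differences were -3.67 for Nr1d1, -3.21 for Dbp, -2.34 for Nr1d2 and -1.84 for Arntl, and the same 9 members were called. The stromal sums given above moved with this comparison, as did 3 endothelial markers (1.24 to 7.46 TPM in all organoids, 14.8 to 24.3 TPM in tissue). The 4 leukocyte markers summed to 9.60 to 54.8 TPM in tissue but did not move together. Cd68 held 46.1 to 79.1 CPM in organoids with DHT and 4.65 to 11.3 CPM in tissue. The other 3 were higher in tissue: Ptprc (3.74 to 26.0 against at most 0.465 CPM), Adgre1 (4.01 to 22.5 against 0) and Cd3e (0.189 to 4.86 against at most 0.0222). The part of these markers in the comparison was not tested. In bulk RNA, fewer cells of a type and less RNA per cell cannot be told apart.

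**Figure D5:**
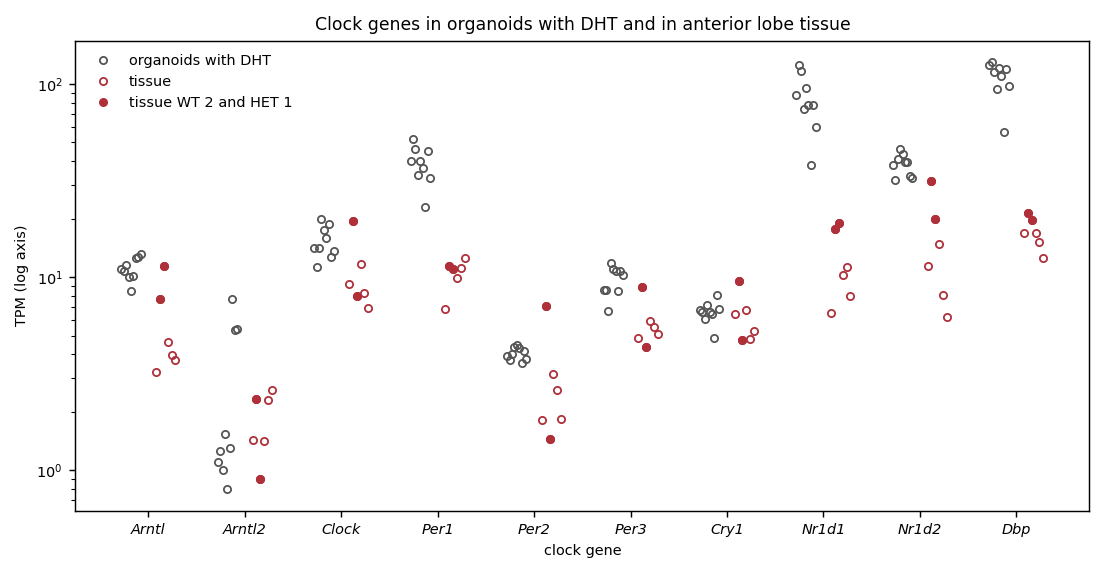
TPM (vertical log axis) of the clock genes in 9 organoid libraries with DHT (grey) and 6 tissue libraries (red; filled for WT 2 and HET 1, which hold seminal vesicle transcripts). Nr1d1 and Dbp in tissue lie at 6.55 to 21.5 TPM, below all organoid libraries (38.0 to 130 TPM), and Arntl2 overlaps.

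Of the 22 other clock genes, 12 fell and 7 rose in tissue against organoids with DHT, with a median log2 difference of -0.53. Of all 17912 genes, 33.7% were called lower and 41.7% higher, 75.3% in all, so most genes moved in this comparison. By p, the first 6 were the E-box repressors Bhlhe41 (log2 difference -3.88 ± 0.24 SE) and Bhlhe40 (-3.53 ± 0.28), the deubiquitinase Usp2 (1.96 ± 0.15), the repressor Ciart (-2.23 ± 0.17), the cell cycle kinase Wee1 (-1.53 ± 0.15) and the casein kinase Csnk1a1 (-1.36 ± 0.14). The groups did not overlap for any of these 6 genes, whose adjusted p in edgeR ran from 5.23e-11 to 7.89e-08. Bhlhe40 held 277 to 392 TPM in organoids with DHT and 5.87 to 114 TPM in tissue, and Usp2 1.16 to 2.78 TPM and 5.08 to 10.3 TPM.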

How the data were processed

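Estimated counts of reads and TPM per transcript were deposited by the authors for each library; the submitters' processing notes name Salmon 0.13.1. They also name hg38, whereas the identifiers in the files are mouse Ensembl transcripts. The index, trimming and strand setting are not given in the sources used here. Estimated counts and TPM of 116945 transcripts were summed per gene through GENCODE M21 (GRCm38), and 922 transcripts (0.228% to 0.327% of reads) had no gene. Rounded counts were fitted with edgeR 4.0.16 (R 4.3.3): filterByExpr, TMM scaling, quasi-likelihood F test and Benjamini-Hochberg adjustment over all genes, with a threshold of 0.05. The fits held 18 organoid libraries (15427 genes), 6 tissue libraries (16753 genes), and all 24 (17912 genes). DESeq2 1.42.0 was an alternative. The scripts were tested on simulated data. The 10 genes and the gene lists were chosen with earlier results of these data known, so no p is printed for the 10. The p-values printed for the 22 other clock genes carry the same limit. Of the 22 other clock genes, those called are named, up to the 6 with the lowest p; the 5 genes with the highest r are named for Arntl2 and Dbp.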

Additional observations from a re-analysis of the deposited data

How the results depend on the processing

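Alternatives were DESeq2, its size factors in edgeR, other filters on low counts, offsets for transcript length, leaving out each library, fits of only the groups compared, a block for the replicate number, and TPM in place of CPM. No log2 change changed sign while called. The number of the 22 other clock genes called moved as follows. With DESeq2 it was 1 for HET withdrawal, 5 for mean withdrawal, 1 for HET against WT under either condition, 3 for KO against HET with DHT and 1 without. Without the low-count filter, or with length offsets, it was 0 for mean withdrawal and 0 for KO against HET with DHT. In the fit of the groups compared it was 1 for HET against WT and 2 for KO against HET with DHT, and 0 for KO against WT without DHT. With 1 library left out it ranged from 1 to 2 for mean withdrawal, from 0 to 2 for KO against HET with DHT, from 0 to 2 for HET against WT without DHT and from 0 to 1 for KO against WT without DHT. Pairing by replicate number was not assumed in the main fits. Over 45 same-numbered organoid pairs, the correlation of deviations from group means ran from -0.517 to 0.691 (median 0.04), and 17 were over 0.1. Over 90 unlike-numbered pairs it ran from -0.634 to 0.480 (median -0.02), and 23 were over 0.1. In tissue the medians were 0.109 over 6 same-numbered and -0.109 over 6 unlike-numbered pairs. With 2 libraries per group, the deviations from a group mean mirror each other. The unlike-numbered values are therefore the same-numbered ones with the sign reversed, and the contrast of these medians carries no further information. These values do not decide whether some samples were paired. With the replicate block the number called was 2 for HET against WT and 3 for KO against HET with DHT, and 1 each for HET against WT and KO against HET without DHT. Arntl2 with 36 reads in an organoid library and 24 in a tissue library is the member that depth limits most.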
